A study of Homo sapiens with 4 samples.

Results

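The 10 genes described here encode subunits of the mitochondrial ATP synthase, and their mRNAs were measured on heavy and light polysomes of the human colorectal carcinoma line HCT116. They were taken from a table of 26364 gene symbols by name: ATP5A1, ATP5B, ATP5C1, ATP5D, ATP5E, ATP5F1, ATP5H, ATP5O, ATP5I and USMG5. All 10 had a row, and all 10 were among the 13574 genes that passed the filter on low counts. The study had 4 libraries, 1 per group: heavy and light polysomes of cells labelled as a Dicer1 knockout, and heavy and light polysomes of wild type cells. Heavy polysomes were defined as mRNAs with 10 or more ribosomes and light polysomes as those with 9 or fewer, separated on sucrose gradients of cytoplasmic extract. DICER1 is the enzyme that cuts microRNA precursors. The labels do not say how many clones or cultures stand behind a library. The 10 subunits were selected on the measured values of these same 4 libraries, with their heavy to light ratios and their labelled knockout to wild type ratios known, so their values are given as descriptions, without tests.

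ATP synthase, or complex V, makes ATP in the inner mitochondrial membrane from the proton gradient that the respiratory chain builds. Its catalytic head, formed by alternating alpha and beta subunits, faces the matrix. A central stalk of gamma, delta and epsilon turns inside the head and stands on a ring of c subunits in the membrane. A peripheral stalk, to which b, d and OSCP belong, holds the head still, and small membrane subunits such as e and DAPIT take part in joining 2 complexes into a dimer. Apart from subunits a and A6L, which mitochondrial DNA encodes, all subunits are translated in the cytosol and imported. A polysome is an mRNA loaded with several ribosomes, and the length of the coding sequence limits how many it can hold.

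The coding sequences of the 10 subunits span a wide range of lengths. ATP5A1 (alpha) has 1662 nucleotides with the stop codon and ATP5B (beta) 1590, against 897 for ATP5C1 (gamma), 771 for ATP5F1 (b), 642 for ATP5O (OSCP), 507 for ATP5D (delta) and 486 for ATP5H (d). The membrane subunits ATP5I (e) and USMG5 (DAPIT) have 210 and 177, and ATP5E (epsilon) has 156. If 1 ribosome covers about 30 nucleotides, the coding sequence of ATP5A1 has room for 55.4 ribosomes and that of ATP5D for 16.9, but ATP5I has room for 7.0, USMG5 for 5.9 and ATP5E for 5.2. These 3 are thus shorter than 10 such footprints side by side. Their whole coding sequences are shown because they are the 3 shortest, with the lowest heavy to light ratios; capitals mark the start and the stop codon.

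USMG5: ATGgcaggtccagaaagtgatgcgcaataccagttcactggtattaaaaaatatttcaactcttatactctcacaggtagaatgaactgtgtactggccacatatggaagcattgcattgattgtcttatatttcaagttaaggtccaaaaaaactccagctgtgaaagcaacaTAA
ATP5I: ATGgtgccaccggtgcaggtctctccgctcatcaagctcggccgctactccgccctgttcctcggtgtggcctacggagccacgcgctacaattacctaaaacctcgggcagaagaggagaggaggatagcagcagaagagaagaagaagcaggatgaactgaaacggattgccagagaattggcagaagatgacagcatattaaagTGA
ATP5E: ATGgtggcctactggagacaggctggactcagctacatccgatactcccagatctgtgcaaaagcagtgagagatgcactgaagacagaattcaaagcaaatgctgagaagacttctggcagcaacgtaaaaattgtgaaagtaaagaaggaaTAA

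The sequences are those of GENCODE release 44 on GRCh38, read 5′ to 3′. On that build USMG5 (current symbol ATP5MK) lies on chromosome 10 from 103389041 to 103396492, ATP5I (ATP5ME) on chromosome 4 from 672436 to 674330 and ATP5E (ATP5F1E) on chromosome 20 from 59025475 to 59032345, all on the minus strand. ATP5B (ATP5F1B) lies on chromosome 12 from 56638175 to 56645984 and ATP5A1 (ATP5F1A) on chromosome 18 from 46080248 to 46104334, both on the minus strand. ATP5C1 (ATP5F1C) lies on the plus strand of chromosome 10 from 7788147 to 7807815, and ATP5H (ATP5PD) on the minus strand of chromosome 17 from 75038863 to 75046985. The other members are ATP5D (ATP5F1D, chromosome 19), ATP5F1 (ATP5PB, chromosome 1) and ATP5O (ATP5PO, chromosome 21).

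The bases around the start codon, which affect how readily a ribosome begins there, are shown for 5 subunits that range from the heaviest to the lightest on polysomes. Capitals mark the start codon, with 9 bases before it and 1 after it.

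ATP5A1: actgcaaagATGc
ATP5B: gactacgccATGt
ATP5H: gatcccaaaATGg
ATP5O: cgggagaagATGg
USMG5: attgaaatcATGg

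All 10 subunits had a purine 3 bases before the start codon, at position -3, against 86.2% of 18601 coding genes in the table. A G directly after the start codon, at position 4, stood in 5 of 10 (ATP5E, ATP5H, ATP5I, ATP5O and USMG5), against 51.4% of coding genes. Both features together were found in 5 of 10, against 43.6%. The 3 subunits that lay mostly in heavy polysomes in both gradients lacked this G, but so did ATP5D and ATP5F1, which were higher in light polysomes in both. The 3 with the lowest heavy to light ratios had it, as did ATP5H and ATP5O with ratios in between. A link between this base and the ratio was not tested.

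Library totals were 19238492 and 17457116 counts for heavy and light polysomes of the labelled knockout and 20933675 and 19727010 for those of the wild type. DICER1 mRNA, which checks the label, had 925 and 889 counts in labelled knockout heavy and light polysomes and 500 and 547 in wild type ones, so it was about 1.9-fold higher under the knockout label. Whether that mRNA makes a functional protein cannot be read from a gene count, and the name "labelled knockout" is kept throughout. Each genotype had 1 gradient, so genotype and gradient cannot be told apart. Ribosomal RNA took 4.32% and 5.97% of the counts in the labelled knockout and 2.61% and 3.59% in the wild type; its part in the genotype values was not tested beyond rescaling. Of 10 epithelial markers, 9 had at least 50 counts in each library, VIL1 being at 0 in all 4. Of 15 markers of fibroblasts, endothelium, blood and liver, 2 (COL1A1 and CD68) reached 50 counts in each. The whole list of 15 summed to 67.7 and 27.9 CPM (counts scaled to a common library size) in heavy and light polysomes of the labelled knockout and 54.5 and 24.0 CPM in the wild type, and 3 were at 0 throughout.

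The catalytic head was the heaviest part of the complex on polysomes. ATP5B, the beta subunit that carries the catalytic sites, had 42391 counts in heavy and 16474 in light polysomes of the labelled knockout, against 54834 and 9559 in the wild type. After scaling by the trimmed mean of M values (TMM), these were 2343 and 897 CPM in the labelled knockout and 2899.7 and 434 CPM in the wild type. Both heavy libraries lay above both light ones. The log2 heavy to light ratio was 1.39 in the labelled knockout (95% counting interval 1.36 to 1.41) and 2.74 in the wild type (2.71 to 2.77), with a mean of 2.06 ± 0.96 (SD, n = 2 gradients). The spread between the gradients was thus far wider than counting error.

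ATP5A1, the alpha subunit that alternates with beta in the head, had 20155 and 6544 counts in heavy and light polysomes of the labelled knockout and 23907 and 5708 in the wild type. Its log2 ratio was 1.64 (1.60 to 1.68) in the labelled knockout and 2.29 (2.24 to 2.33) in the wild type, a mean of 1.96 ± 0.45 (SD, n = 2). The order of the head subunits differed between gradients: alpha stood above beta in the labelled knockout and below it in the wild type, by more than the counting intervals in each. Both mRNAs lay in heavy polysomes with 75.8% and 72.3% of their summed CPM for alpha and beta in the labelled knockout, and 83.0% and 87.0% in the wild type. A share of this kind compares scaled libraries, because the counts do not hold how much RNA each fraction had.

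The central stalk spread over nearly the whole range. ATP5C1, the gamma subunit that turns inside the head, had 5808 and 3832 counts in heavy and light polysomes of the labelled knockout and 12050 and 5421 in the wild type. Its log2 heavy to light ratio was 0.62 (0.56 to 0.68) in the labelled knockout and 1.37 (1.33 to 1.42) in the wild type. ATP5D, the delta subunit at the foot of the stalk, had 2582 and 4843 counts against 3519 and 5511, and ratios of -0.89 (-0.95 to -0.82) and -0.43 (-0.49 to -0.37). Gamma thus lay on the heavy side and delta on the light side in both gradients.

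ATP5E, the epsilon subunit that sits beside delta, lay far on the light side, with 129 heavy and 555 light counts in the labelled knockout and 163 and 925 in the wild type. Its ratio was -2.07 (-2.34 to -1.79) in the labelled knockout and -2.27 (-2.51 to -2.03) in the wild type. The counts of ATP5E are uncertain. A processed pseudogene on chromosome 13, listed in the table as ATP5EP2, matches its 156 coding nucleotides at 150, which is 96.2% identity. Counting from 1 at the A of the start codon, with the base of ATP5E first, the pseudogene differs by C65T, T105C, G106A, G108A, G122A and A125G. The row of ATP5EP2 had 100 and 558 counts in heavy and light polysomes of the labelled knockout and 186 and 827 in the wild type, about as many as ATP5E itself. Its fitted log2 heavy to light ratio over both gradients was -2.18, against -2.19 for ATP5E, so this mean is nearly the same whichever row is read. The ratios per gradient differed between the rows, being -2.44 in the labelled knockout and -1.92 in the wild type for ATP5EP2. Neither the level of ATP5E mRNA nor its difference between the gradients is settled by either row.

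The peripheral stalk lay near the middle. ATP5F1, the b subunit that forms the long arm of the stalk, had 4047 and 5506 counts in heavy and light polysomes of the labelled knockout and 4531 and 6886 in the wild type. Its ratios of -0.42 (-0.48 to -0.36) and -0.38 (-0.44 to -0.33) overlapped between the gradients, with an SD of 0.03, the smallest among the 10. ATP5O, the OSCP subunit that ties the stalk to the head, had 3726 and 7058 counts against 5771 and 7470. Its ratio of -0.90 (-0.96 to -0.84) in the labelled knockout was below that of -0.15 (-0.20 to -0.10) in the wild type by more than both intervals.

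ATP5H, the d subunit of the same stalk, was the only member on opposite sides of 0. It had 4279 heavy and 6624 light counts in the labelled knockout and 5362 and 5152 in the wild type, with ratios of -0.61 (-0.66 to -0.55) and 0.28 (0.22 to 0.33). The wild type value depends on the scaling and is -0.03 with library totals, so that the gradients then lie on the same side. With either scaling the labelled knockout was lower by 0.74 or more on the log2 scale.

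The small membrane subunits lay far on the light side as well, USMG5 lowest of the 10. USMG5, the DAPIT subunit that takes part in dimer formation, had 636 heavy and 3816 light counts in the labelled knockout and 757 and 4788 in the wild type. These were 35.1 and 208 CPM, against 40.0 and 217 CPM. Light polysomes thus held 5.90-fold more in the labelled knockout and 5.42-fold more in the wild type, with log2 ratios of -2.56 (-2.68 to -2.44) and -2.44 (-2.55 to -2.33). ATP5I, the e subunit, which also belongs to the dimer interface, had 647 and 2660 counts in the labelled knockout and 664 and 2883 in the wild type, and ratios of -2.01 (-2.14 to -1.89) and -1.90 (-2.02 to -1.77). For ATP5E, ATP5I and USMG5 the intervals of both gradients overlapped. Heavy libraries still held 19.1%, 19.8% and 14.5% of their scaled counts in the labelled knockout and 17.0%, 21.1% and 15.5% in the wild type. Over 200 genes with coding sequences under 300 nucleotides, the median share was 25.4% and 24.1%, and 199 of them had more in light than in heavy polysomes in both gradients.

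**Figure D1:**
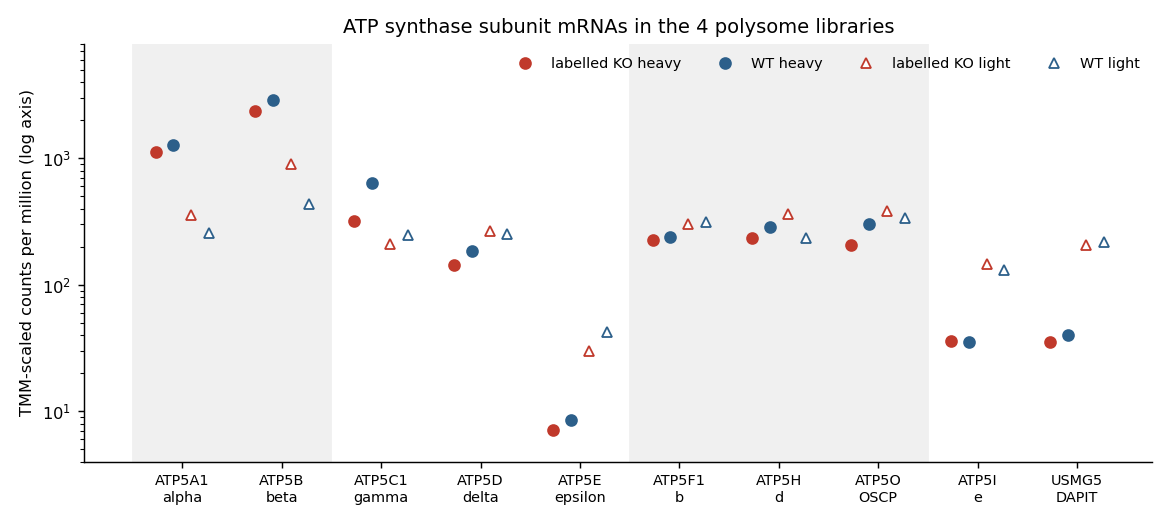
Level of each subunit mRNA in TMM-scaled CPM on a log axis, 1 point per library; filled circles are heavy and open triangles light polysomes, red the labelled knockout and blue the wild type, and shaded bands separate head, central stalk, peripheral stalk and membrane subunits. ATP5A1, ATP5B and ATP5C1 have both heavy points above both light ones, and ATP5E, ATP5I and USMG5 have them below.

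**Figure D2:**
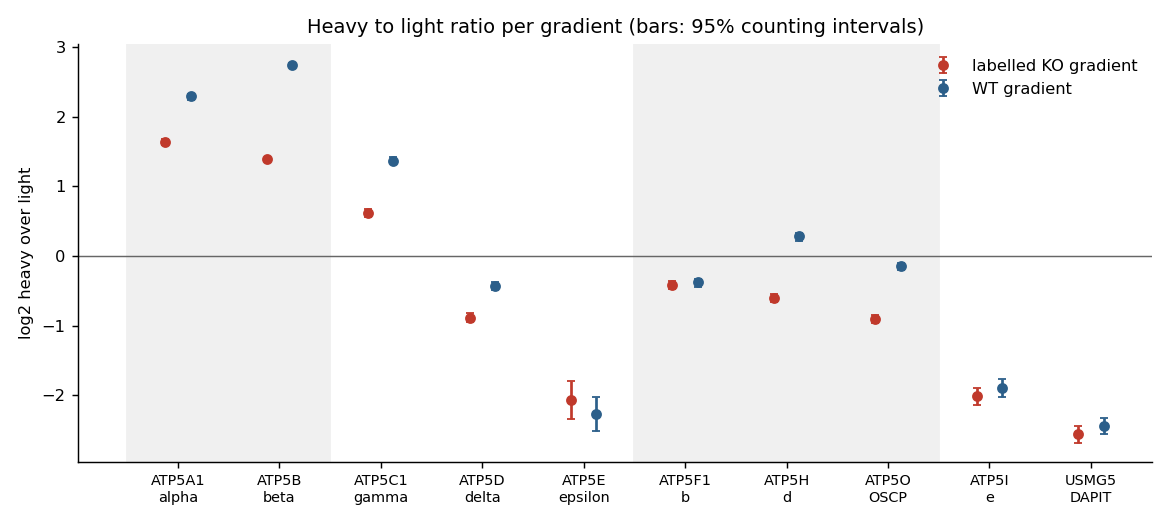
Log2 heavy to light ratio of each subunit mRNA in the labelled knockout gradient (red) and the wild type gradient (blue), 1 ratio per gradient, with bars for 95% counting intervals. The ratios run from -2.56 for USMG5 in the labelled knockout to 2.74 for ATP5B in the wild type, and ATP5H lies on both sides of 0.

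In the fit of all genes, edgeR's quasi-likelihood test (Benjamini-Hochberg adjusted p under 0.05, gradient as a block) called 3 of the 10 subunits toward heavy polysomes, where 30.0% of 13574 genes were called. It called 4 toward light polysomes, where 29.3% were, and 3 (ATP5F1, ATP5H and ATP5O) in neither direction. Because the subunits were chosen with these ratios known, nothing is read from the counts. The median fitted log2 ratio was -0.46 for the 10 and -0.07 for all genes. With library totals in place of TMM the median of all genes moves to -0.30, and each ratio given above falls with it.

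Coding length ordered the subunits. Spearman's rho between coding length and the heavy to light ratio was 0.94 in the labelled knockout and 0.89 in the wild type across the 10 members, against 0.64 and 0.50 across 10586 coding genes. These values describe genes, which share the libraries and are not replicates. Against genes of the same length class, the subunits did not all stand alike. In the class of 1501 to 2000 nucleotides (1650 genes) the median of the mean ratio over both gradients was 0.44, with quartiles of -0.29 and 1.16. ATP5B and ATP5A1 exceeded this median by 1.63 and 1.53 and held places 1593 and 1569 from the light end.

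ATP5C1 was 1.29 above the median of its class of 751 to 1000 nucleotides (-0.30), at place 1126 of 1214. ATP5F1, in the same class, was within the quartiles at -0.40. ATP5H was 1.01 above the median of the class of 251 to 500 nucleotides (-1.17), at place 712 of 732. ATP5D and ATP5O were within the quartiles of their class (-1.03 to -0.18) at -0.66 and -0.53. Alpha, beta, gamma and d were thus heavier than most mRNAs of their length class in the mean of the gradients. Delta, b and OSCP were within the quartiles. For d the class matters, since ATP5H (486 nucleotides) lies near the upper edge of its class. The next class, which holds ATP5D (507 nucleotides), had a median of -0.63 and an upper quartile of -0.18. At -0.17, ATP5H would lie close to that upper quartile. The distance from the class median differed between the gradients. It was 0.96 in the labelled knockout and 2.30 in the wild type for ATP5B, 1.22 and 1.85 for ATP5A1, and 0.97 and 1.66 for ATP5C1. ATP5H was 0.59 above its class median in the labelled knockout and 1.46 above it in the wild type. ATP5O changed side, at -0.24 in the labelled knockout and 0.47 in the wild type, and so did ATP5D, at -0.22 and 0.20.

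The shortest subunits were lighter than most mRNAs of their length. Among the 117 mRNAs of at most 250 coding nucleotides the median was -1.71, with quartiles of -1.92 and -1.49. USMG5, at -2.50, had the lowest ratio of all 117, 0.79 below the median. ATP5E stood at place 7 from the light end (-2.17) and ATP5I at place 22 (-1.96). The wide span within the complex thus went past what the class medians alone spanned, at both ends.

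**Figure D3:**
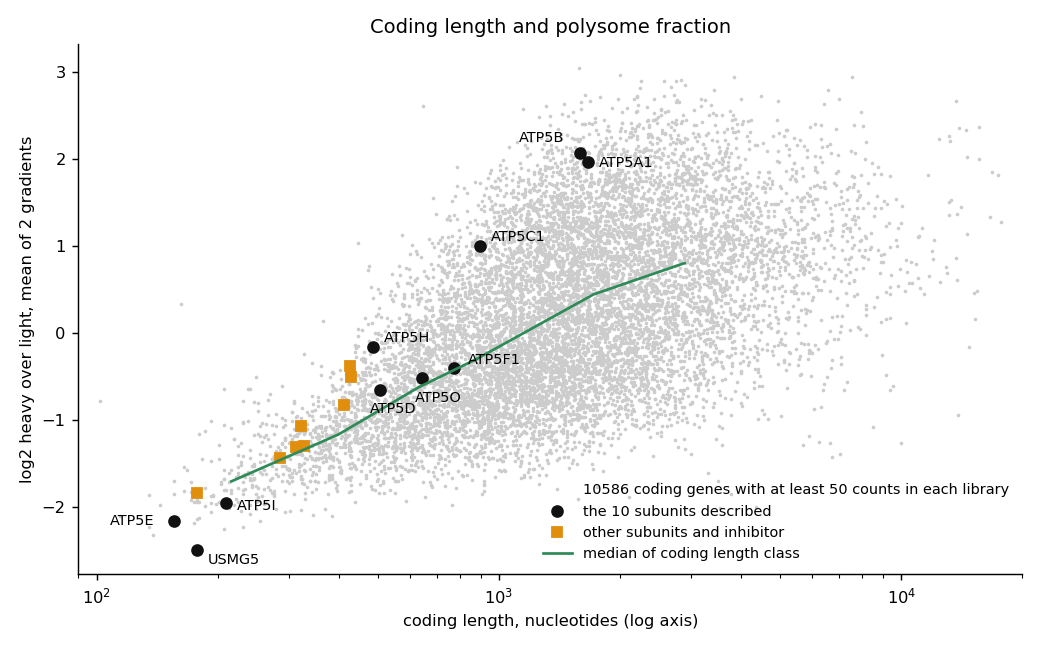
Mean log2 heavy to light ratio over both gradients against coding length in nucleotides (log axis) for 10586 coding genes (grey), the 10 subunits (black) and 8 other subunits or inhibitor genes (orange); the green line joins the medians of the coding length classes. ATP5A1, ATP5B, ATP5C1 and ATP5H lie above the line and USMG5 below it.

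The remaining 10 genes of the complex in the list all had fitted ratios below 0. Of 10 (the c subunits ATP5G1, ATP5G2 and ATP5G3, the F6 subunit ATP5J of the peripheral stalk, the membrane subunits ATP5J2 (f), ATP5L (g), its paralog ATP5L2 and C14orf2, the inhibitor ATPIF1 and ATP5S), 7 were called toward light polysomes and 0 toward heavy. The background is 29.3% and 30.0%. These 10 had a median fitted log2 ratio of -1.18 and a median coding length of 324 nucleotides. C14orf2 stood lowest at -1.85 (edgeR adjusted p = 7.76e-09), followed by ATP5J2 at -1.44 (edgeR adjusted p = 5.08e-06), ATP5L at -1.32 (edgeR adjusted p = 2.98e-05) and ATP5J at -1.30 (edgeR adjusted p = 8.45e-05). ATP5L2 at -1.29, ATPIF1, which blocks ATP hydrolysis by the enzyme, at -1.08 and ATP5G1 at -0.83 were also called. ATP5S (-0.53), ATP5G3 (-0.51) and ATP5G2 (-0.39) were not. ATP5L2, with 13 to 39 counts and ATP5S, with 43 to 98, rest on few reads. Exact runs of 50 or more nucleotides that recur at other loci cover 22.4% of the coding sequence of ATP5L2, 23.2% of that of ATP5J2 and 16.0% of that of ATP5L, so their reads cannot be assigned with certainty. The c subunits ATP5G2 and ATP5G3 encode the same mature protein as ATP5G1, and all 3 lay 0.34 to 0.78 above the median of their length class.

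Genes that serve or resemble the enzyme, and those of complex I, had median fitted ratios of -0.40 (assembly factors), 0.69 (carriers), 0.26 (V-ATPase) and -0.78 (complex I), and differences between these lists were not tested. Of 5 assembly factors, 2 were called light and 0 heavy, from TMEM242 at -1.33 to TMEM70 at -0.27. Of the 4 carriers that bring in phosphate and exchange ATP for ADP, 3 were in the fit, and SLC25A3, the phosphate carrier, was called heavy at 0.86 while SLC25A4 stood at -0.53. SLC25A6 had 0 counts in all 4 libraries. Whether reads can be assigned to its locus was not tested, so absence of its mRNA is not read from these counts. The V-ATPase, a rotary proton pump of lysosomes with a related architecture, had 7 of 17 genes called heavy and 5 light, from ATP6V0D1 at 2.13 to ATP6V0E1 at -1.68. Complex I of the respiratory chain had 6 of 37 called heavy and 23 light, from NDUFS1 at 2.01 to NDUFB1 at -2.16.

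The genes nearest to USMG5 and ATP5B over the 4 libraries were found by the distance between centred log2 CPM profiles, among 7738 genes with a mean of at least 20 CPM. Nearest to USMG5 were SEC61G (distance 0.314), SNRPG (0.350), RPS27L (0.374), TMSB4X (0.377) and LINC00998 (0.378), with coding sequences of 135 to 255 nucleotides. Nearest to ATP5B were CPVL (0.058), SF3B4 (0.067), GNL2 (0.130), ILF2 (0.146) and IDH3B (0.149), with coding sequences of 1158 to 2196 nucleotides. CPVL, a carboxypeptidase-like protein, had 42.1 and 15.2 CPM in heavy and light polysomes of the labelled knockout and 50.2 and 7.45 in the wild type, so its light level too was about 2.04-fold higher under the knockout label. The nearest genes of ATP5B thus lay at smaller distances than those of USMG5.

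Levels between subunits can be compared only per length. Per 1000 coding nucleotides, ATP5B was highest in heavy polysomes, at 1473 CPM in the labelled knockout and 1824 in the wild type. The row of ATP5E was lowest, at 45.7 and 55.3, though its reads may be shared with the pseudogene row and its level is not settled. In light polysomes USMG5 was highest, at 1174 CPM in the labelled knockout and 1229 in the wild type. Per 1000 nucleotides of the whole transcript the highest light level was instead that of ATP5H in the labelled knockout (592 CPM) and of ATP5O in the wild type (449 CPM). The order of levels in light polysomes therefore depends on which length is used.

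The second question was whether the labelled knockout differed from the wild type within a fraction; with 1 library on each side there is no test. In heavy polysomes 9 of 10 subunits were below the wild type, with a median log2 ratio of -0.27, where 53.2% of 10418 genes were below it and the median was -0.03. With another scaling (relative log expression, RLE) all 10 were at or below 0, and the median of all genes was -0.06. With TMM none differed 2-fold, where 5.49% of genes did, but with RLE ATP5C1 passed it at -1.02. With TMM 1 subunit was at least 1.5-fold lower, where 9.65% of genes were, and with RLE ATP5O passed this fold too, at -0.60.

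The subunit past 1.5-fold with TMM was ATP5C1, the gamma subunit, with 321 CPM in heavy polysomes of the labelled knockout and 637 CPM in those of the wild type. Its log2 ratio was -0.99 (counting interval -1.03 to -0.94), and in light polysomes it was -0.24 (-0.30 to -0.18), with 209 and 246 CPM. ATP5O followed in heavy polysomes at -0.57 (-0.63 to -0.51), then ATP5D at -0.38 (-0.46 to -0.31). ATP5B stood at -0.31, ATP5E at -0.27 (-0.60 to 0.06), ATP5H at -0.26, USMG5 at -0.19, ATP5A1 at -0.18 and ATP5F1 at -0.10. The pseudogene row ATP5EP2, whose reads cannot be told from those of ATP5E with certainty, stood at -0.82 (-1.17 to -0.47). ATP5I had 35.8 and 35.1 CPM, and its ratio of 0.03 (-0.13 to 0.18) did not differ beyond counting error. Gamma thus had the largest deficit of the 10 in heavy polysomes, and the difference between gamma and its partners was not tested.

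In light polysomes the subunits went both ways. ATP5B had 897 CPM in the labelled knockout and 434 in the wild type, a log2 ratio of 1.05 (1.01 to 1.08), and was the 1 subunit past 2-fold, where 6.5% of genes were. With library totals its ratio was 0.96, so it then fell just short. With ATP5H at 0.62 (0.57 to 0.68), 2 of 10 subunits were at least 1.5-fold higher, where 14.8% of genes were. ATP5H did not reach this fold with library totals (0.54) or without ribosomal RNA in the totals (0.57), which leaves ATP5B alone. ATP5A1 stood at 0.46 (0.41 to 0.51). At the other end stood ATP5E, at -0.47 (-0.63 to -0.32). Of the rest, ATP5C1 stood at -0.24, as given above, and ATP5O (0.18), ATP5I (0.14), ATP5D (0.07), ATP5F1 (-0.06) and USMG5 (-0.07), lay within 0.2 of 0, where the scaling decides the sign for ATP5D (-0.01 with library totals). The median was 0.11 for the 10, against 0.03 for all genes.

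**Figure D4:**
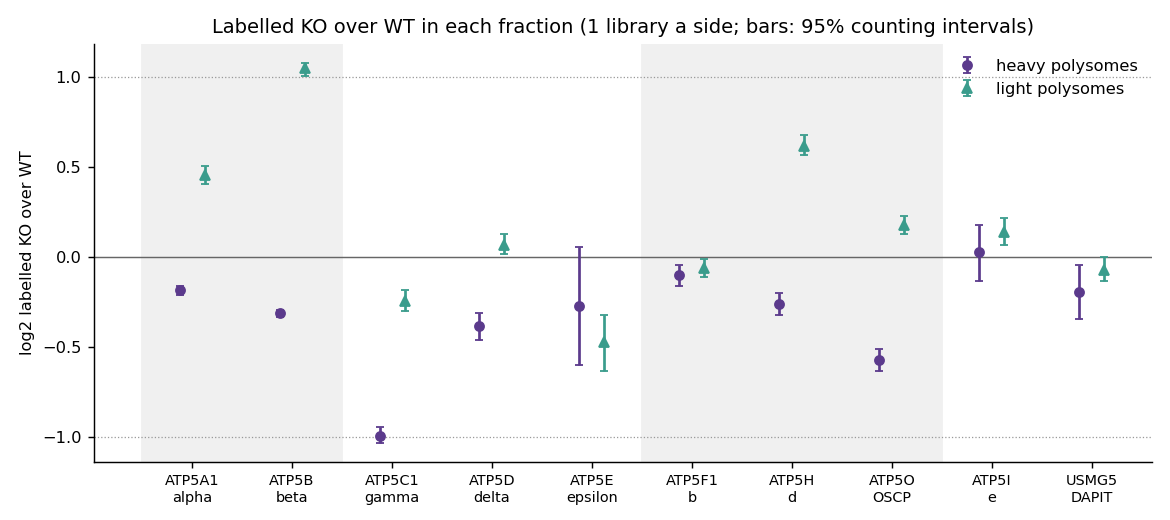
Log2 ratio of the labelled knockout to the wild type for each subunit mRNA in heavy (purple circles) and light polysomes (green triangles), with bars for 95% counting intervals; dotted lines mark 2-fold and each point compares 1 library with 1 library. ATP5C1 lies at -0.99 in heavy polysomes and ATP5B at 1.05 in light ones.

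The heavy to light ratio was lower in the labelled knockout for 9 of 10 subunits, by a median of -0.55 on the log2 scale, where 53.5% of 10834 genes were lower and the median was -0.05. With library totals 6 of 10 were lower, and the median of all genes was 0.09. The counting interval lay below 0 for 6 of 10, where 37.2% of genes had it below 0: ATP5B (-1.35, -1.39 to -1.31), ATP5H (-0.89), ATP5C1 (-0.75), ATP5O (-0.75), ATP5A1 (-0.64) and ATP5D (-0.46). ATP5F1 (-0.04), ATP5I (-0.12), USMG5 (-0.12) and ATP5E (0.20, -0.16 to 0.57) did not differ between gradients beyond counting error with TMM. The pseudogene row ATP5EP2 had -0.51 (-0.90 to -0.13), so the sign for ATP5E depends on which row is read. With RLE the interval lay below 0 for 9 of 10, ATP5F1 (-0.11), ATP5I (-0.20) and USMG5 (-0.20) included. The median of all genes also moved with RLE, to -0.12, and the share of all genes with such an interval was not computed for RLE.

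For genes at large, the difference between the gradients varied with the wild type ratio. Across 10834 genes (each library 50 counts or more), the least-squares line of the labelled knockout ratio on the wild type ratio had a slope of 0.709. For 800 genes with a wild type ratio above 2, the class of ATP5A1 and ATP5B, the median difference was -0.76, and light levels were higher in the labelled knockout by a median of 0.68. For 87 genes with a wild type ratio up to -2, the class of ATP5E and USMG5, the median difference was 0.69. The wild type ratio is itself part of this difference, so any disagreement between the gradients flattens the line and gives these signs. A general narrowing of the ratios in the labelled knockout is therefore not read from them. Medians of the coding length classes ran from -1.69 to 0.74 in the labelled knockout and from -1.74 to 0.81 in the wild type.

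Below this line lay 9 of 10 subunits, where 49.5% of genes did. More than 1 residual SD (0.36) below it lay 7 of 10, where 16.3% of all genes did, with a larger share among short mRNAs, given below. USMG5 had the largest deviation (-0.83), with ATP5H (-0.80) and ATP5O (-0.79) close to it. ATP5I (-0.67), ATP5D (-0.58), ATP5B (-0.55) and ATP5E (-0.45) followed, then ATP5C1 (-0.35) and ATP5F1 (-0.15), and ATP5A1 lay on the line (0.03). Where the wild type ratio is negative, the line lies above equal ratios. A gene there can lie below the line without a lower ratio in the labelled knockout. The plain difference was -0.12 (-0.28 to 0.04) for USMG5 and 0.20 for ATP5E, but -0.89 for ATP5H and -0.75 for ATP5O. All 8 of the other subunits with enough counts were below the line by more than 1 SD. Farthest was ATP5J2, whose reads cannot be assigned with certainty, at -1.11, the lowest of 732 genes in its length class. Of 37 complex I genes 31 lay more than 1 SD below the line, and of 17 V-ATPase genes 6.

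Short mRNAs in general lay below this line. The median deviation was -0.41 for coding sequences of up to 250 nucleotides, -0.39 for 251 to 500, -0.27 for 501 to 750 and 0.10 for 1501 to 2000 nucleotides. In the same order, 54.7%, 53.4%, 37.4% and 5.58% of the genes of these classes lay more than 1 SD below the line. The plain difference between the gradients, labelled knockout minus wild type, had medians of 0.08, -0.05, -0.11 and -0.01 in these classes. Against its own class, ATP5B stood at place 24 from the lowest of 1650 genes and ATP5O at place 30 of 1201. ATP5H stood at place 50 of 732 and USMG5 at place 11 of 117. ATP5E (place 56 of 117), ATP5F1 (place 615 of 1214) and ATP5A1 (place 646 of 1650) were within the quartiles of their classes. ATP5D stood at place 170 of 1201, ATP5I at place 30 of 117 and ATP5C1 at place 335 of 1214. The deviations of beta, d, OSCP, delta and DAPIT thus lay below the lower quartile of their classes, that of e lay at it, and those of epsilon, b, gamma and alpha lay between the quartiles.

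**Figure D5:**
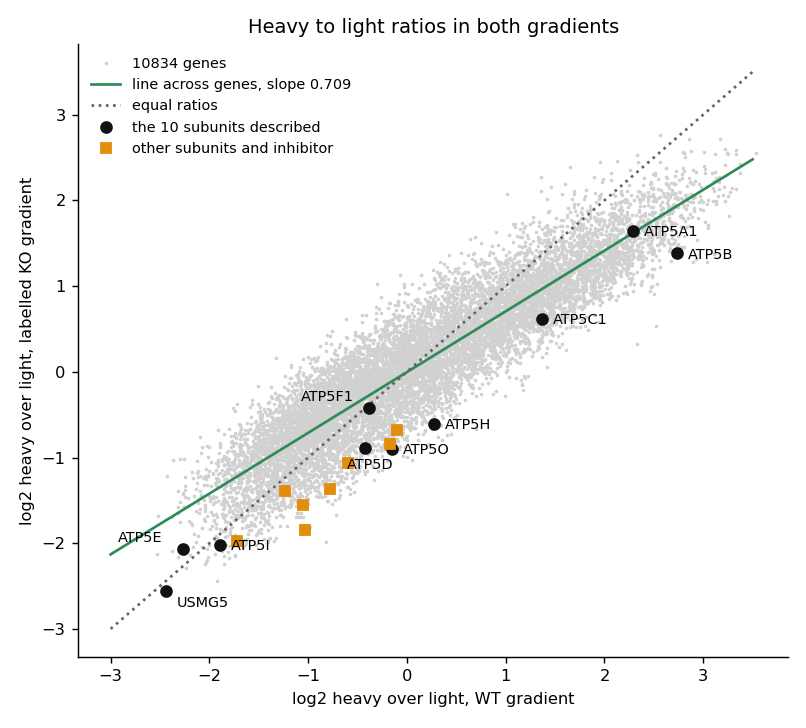
Log2 heavy to light ratio in the labelled knockout gradient against that in the wild type gradient for 10834 genes (grey), the 10 subunits (black) and 8 other subunits or inhibitor genes (orange), with the line across genes (green, slope 0.709) and the line of equal ratios (dotted). All black and orange points except ATP5A1 lie below the green line.

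Reads of some subunits cannot be assigned with certainty. A search of GRCh38 found stretches of 50 or more coding nucleotides that recur exactly elsewhere for ATP5E (41.0% of its coding sequence), USMG5 (48.6%), ATP5F1 (37.1%) and ATP5H (24.9%), and for none of the other 6. The copy of USMG5 is the pseudogene ATP5MKP1 in the FTX locus and that of ATP5H the pseudogene ATP5PDP4 in RAP1B. Exons of ATP5I overlap those of MYL5 on the opposite strand over 61.3% of their bases, and MYL5 had 17 and 22 counts in the labelled knockout and 6 and 40 in the wild type. Exons of ATP5E overlap TUBB1 over 23.2% (2 to 12 counts) and those of ATP5H overlap KCTD2 over 19.1% (393 to 674 counts). The strand setting of the counting is not given in the sources used here, so low counts of an overlapping gene do not show that the overlap had no effect.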

How the data were processed

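Polysome-associated RNA of HCT116 cells was sequenced in 4 libraries, 1 per group. The deposited table holds raw counts per gene symbol, not normalised, as the differing totals (17457116 to 20933675) show. CASAVA, STAR and HTSeq and the build hg19 are named in the submitters' processing notes; no versions are listed there, and neither an annotation release nor a strand setting. No column was left without a sample.

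Counts were scaled by TMM and fitted with edgeR 4.0.16 in R 4.3.3 (filterByExpr, quasi-likelihood test, gradient as a block). The 2 gradients are the only repeats of the fraction contrast, which leaves 1 residual degree of freedom per gene. The residual spread is the disagreement between the gradients, which also differ in genotype. The quasi-likelihood test pools this spread across genes, so p-values rest on the pooled spread as well as on the gene's own. Log2 ratios used TMM-scaled CPM with a prior count of 2. The 95% intervals reflect counting error alone, since they were computed from the counts of single libraries. Reads carried no molecular identifiers that would mark separate molecules, so the intervals can be too narrow even for counting error. For genotype folds, the larger count of each compared pair had to reach 100. For ratios per gradient, all 4 counts had to reach 50. Tested on simulated data, the heavy against light test called 66.7% of 99 genes changed 2-fold, 100% of 99 changed 4-fold and 0.0914% of 13126 unchanged ones. The simulated gradients shared the same mean per gene, whereas the real ones differ in genotype and disagree. These shares therefore need not hold for the real libraries.

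Symbols were matched to GENCODE release 44 on GRCh38 for 24413 of 26364 symbols, directly for 23035 and by RefSeq synonym for 1378, including all 10 subunits; lengths are those of the canonical transcript. Exact copies were searched with BLAST 2.17.0. Ratios and lists were computed with pandas 2.3.3, scipy 1.17.1 and numpy 2.4.6 under Python 3.11.15; DESeq2 1.42.0 was an alternative. The subunits and all lists were chosen with earlier results of these data known. Named genes were all 10 subunits, DICER1, every other subunit of the list, the highest and lowest of each further list, the 5 nearest genes of USMG5 and ATP5B, and pseudogene or overlapping genes of a member; SLC25A6 was named after its values were seen.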

Additional observations from a re-analysis of the deposited data

Results flagged for a closer look

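ATP5H, the d subunit of the peripheral stalk, was picked out because its mRNA lay on opposite sides of equal distribution in the gradients. Its log2 heavy to light ratio was -0.61 in the labelled knockout and 0.28 in the wild type, each with a counting interval that excludes 0. The difference was not tested, since each genotype had 1 gradient. With library totals in place of TMM the wild type ratio was -0.03. With TMM, 11.5% of 10834 genes lay on opposite sides.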

How the results depend on the processing

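Without the gradient as a replicate block, edgeR called 5040 genes in place of 8051, and library totals called 38.9% of the called genes toward heavy polysomes in place of 50.6%. The light calls among the other 10 genes of the complex numbered 6 with DESeq2 and without the block, 9 with library totals and 7 with RLE or without a filter on low counts. Assembly factors called light numbered 1 in place of 2 with DESeq2 and without the block. Carriers called heavy numbered 2 in place of 1 with DESeq2 and without a filter on low counts, and 1 was called light with library totals. For the labelled knockout over the wild type, the median over the 10 subunits was -0.18 in heavy polysomes with library totals without ribosomal RNA, in place of -0.27. In light polysomes it was 0.03 with library totals, in place of 0.11. The median shift was -0.41 with library totals and -0.42 without ribosomal RNA, in place of -0.55. With a fold of 1.5 in place of 2, 1 subunit passed in heavy and 2 in light polysomes, in place of 0 and 1, as a smaller fold must give. The mean rho with length over both gradients was 0.42 for the members and 0.26 for all genes with whole transcript length, in place of 0.92 and 0.57. ATP5D in light polysomes changed sign with library totals (-0.01), and the shift of ATP5A1 changed sign as a deviation from the line (0.03). The shift of ATP5E also changed sign as a deviation from the line (-0.45). With library totals, the shifts of ATP5F1 (0.11), ATP5I (0.02) and USMG5 (0.02) changed sign too. The cause of the other moves was not tested. Leaving out 1 library leaves no test; each gradient alone is given above.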
